A study of Mus musculus with 7 samples.

Results

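Tmem176a and Tmem176b are a pair of neighbouring genes that encode proteins with 4 membrane-spanning stretches. They were described here in regulatory T (Treg) cells sorted from mouse lung. Both genes were found among the 19736 entries of each deposited file by their symbols, so the 2 members are 2 of 19736. The pair was chosen by its measured difference in normalised counts between Treg cells with and without CCR6, the receptor of the chemokine CCL20, with earlier results of these data in view. That difference is therefore given as a description, without a test.

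TMEM176 proteins are related to the MS4A family, to which the B cell antigen CD20 belongs, and sit mainly in membranes of the endosomal and lysosomal system. TMEM176B is known as a cation channel that restrains the NLRP3 inflammasome in myeloid cells, and both proteins have been linked to MHC class II antigen presentation in dendritic cells. In lymphocytes the genes are known from cells of the type 17 kind, such as TH17 cells, type 17 gamma-delta T cells and group 3 innate lymphoid cells. The same transcripts are abundant in dendritic cells, macrophages and monocytes.

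All 7 libraries came from female mice of 5 to 7 weeks with the Il4raR576 allele, which alters the alpha chain of the receptor for IL-4, and with the Foxp3EGFP reporter, which marks Treg cells by green fluorescence. The CCR6+ group holds 3 libraries of CCR6+Foxp3EGFP+ cells and the CCR6- group 4 libraries of Foxp3EGFP+ cells without CCR6. Each mouse received 100 μg of ovalbumin (OVA) in 100 μL of PBS into the peritoneum and a second injection after 2 weeks. From day 29 it inhaled an OVA aerosol of 1% for 30 minutes a day on 3 days, and it was killed on day 32. Whole-lung digests were sorted by flow cytometry. The labels do not say whether the allele was on both chromosomes, whether mice were pooled or whether each library had its own mouse, so the spread between libraries may be technical.

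The 2 genes lie head to head on mouse chromosome 6 (mm10, GENCODE release M21). Tmem176b (ENSMUSG00000029810.15) runs on the minus strand from 48833818 to 48841496 and Tmem176a (ENSMUSG00000023367.14) on the plus strand from 48840919 to 48847071, both as protein-coding genes. Their spans overlap by 578 bases at the 5′ ends, from 48840919 to 48841496, and 81 exonic bases belong to both. Those are 2.13% of the 3810 exonic bases of Tmem176a and 3.42% of the 2371 of Tmem176b. No exonic base of either gene is shared with another annotated gene. Whether reads were counted by strand is not given in the sources used here, so reads from the shared stretch cannot be assigned with certainty.

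The start regions are shown because both genes take their transcripts from the same short stretch of DNA. RefSeq (GRCm38.p6) gives 2 promoter windows for Tmem176a and 3 for Tmem176b, each with 250 bases before and 50 bases from the transcript start. The nearest divergent starts, 48841483 for Tmem176a and 48841374 for Tmem176b, have 108 bases between them, and their 2 windows share 208 bases. The sequences below run 5′ to 3′ on the strand of each gene, chr6:48841233-48841532 on the plus strand and chr6:48841325-48841624 on the minus strand. Capitals mark GGAAGT or its reverse complement, the core of sites bound by ETS factors such as PU.1.
Tmem176a: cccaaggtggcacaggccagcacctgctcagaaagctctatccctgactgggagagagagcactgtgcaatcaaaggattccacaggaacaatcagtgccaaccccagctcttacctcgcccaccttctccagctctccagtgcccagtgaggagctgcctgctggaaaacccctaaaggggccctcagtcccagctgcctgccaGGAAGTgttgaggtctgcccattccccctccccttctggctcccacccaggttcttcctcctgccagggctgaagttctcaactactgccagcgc
Tmem176b: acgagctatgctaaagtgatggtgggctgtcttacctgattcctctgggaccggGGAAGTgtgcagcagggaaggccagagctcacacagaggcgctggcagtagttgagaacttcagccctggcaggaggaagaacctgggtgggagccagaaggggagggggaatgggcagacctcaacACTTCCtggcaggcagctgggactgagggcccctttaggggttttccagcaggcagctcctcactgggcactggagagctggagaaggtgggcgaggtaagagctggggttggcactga

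GGAAGT was searched on both strands together with AGGTCA, a half-site of nuclear receptors, and TATAAA, the TATA box, and no match overlapped one of another motif. Of the 5 windows, 3 held GGAAGT and 0 held AGGTCA or TATAAA. Among all 32851 promoter windows of 300 bases, 23.8% held GGAAGT, 16.3% AGGTCA and 13.6% TATAAA. The 3 windows with GGAAGT overlap one another and share a site, so they cannot be counted as separate against the 23.8%. The window of Tmem176a shown here holds that site alone, and the others hold it and a second. In the window of Tmem176a shown here the match began 45 bases before the transcript start. In that of Tmem176b the matches began 196 and 69 bases before it, and the second is the same site as that of Tmem176a, read from the other strand. These matches are a description of letters in the windows.

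The libraries held 11607780 to 47261246 recovered reads. CCR6+ replicate 2 stood apart, with the fewest reads, the smallest share of symbols at 0 (2.16%, against 6.89% to 29.7%) and the highest summed markers of lung epithelium (84628 normalised counts, against 2306 to 12864) and of endothelium and stroma (68103, against 5621 to 10547). Its summed Treg identity genes were the lowest, at 129765 against 261541 to 382579. Ccr6 stood at 5488 ± 2414 normalised counts in the CCR6+ group (n = 3) and 617 ± 312 in the CCR6- group (n = 4), with no overlap. Foxp3 stood at 33447 ± 19614 and 31384 ± 8699, and Il4ra at 26093 ± 12134 and 24579 ± 3244. Foxp3 had its lowest value, 12206, in CCR6+ replicate 2.

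Tmem176a stood at 709.6, 2407 and 423 normalised counts in CCR6+ replicates 1 to 3 and at 161, 293, 159 and 88.0 in CCR6- replicates 1 to 4. Every CCR6+ library lay above every CCR6- library. The group means were 1179.9 ± 1072 (SD, n = 3) and 175 ± 85.7 (n = 4), a ratio of 6.73, and the difference of the mean log2(value + 1) was 2.48 (SE 0.68 from limma). Without CCR6+ replicate 2 the ratio was 3.23 and the log2 difference 1.77, and the groups still did not overlap. Over the 14582 genes kept by a filter on low values, 7.96% stood higher in the CCR6+ group with no overlap between the groups. Tmem176a was 1 of these 1160 genes, and since this contrast chose the pair nothing is read from that. In bulk libraries such as these, fewer cells that express a gene and less of its RNA per cell cannot be told apart.

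Tmem176b stood at 809, 3889.8 and 523 normalised counts in CCR6+ replicates 1 to 3 and at 269, 587, 231 and 178 in CCR6- replicates 1 to 4. The groups overlapped, because CCR6- replicate 2 lay above CCR6+ replicate 3. Group means were 1741 ± 1867 (SD, n = 3) and 316 ± 184 (n = 4), a ratio of 5.51, with a log2 difference of 2.05 (SE 0.77). Without CCR6+ replicate 2 the ratio was 2.11 and the log2 difference 1.19. That library held more than any other of both transcripts, as it did for 43.6% of the genes kept. Limma called 0% of the 14582 genes in either direction at an adjusted p of 0.05 over all genes, with 1198 genes higher (8.22%) and 342 lower (2.35%) at an unadjusted p under 0.05. EdgeR called 2 genes higher (0.0137%), and DESeq2 543 higher (4.03% of 13487) and 136 lower (1.01%), on the recovered reads.

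**Figure D1:**
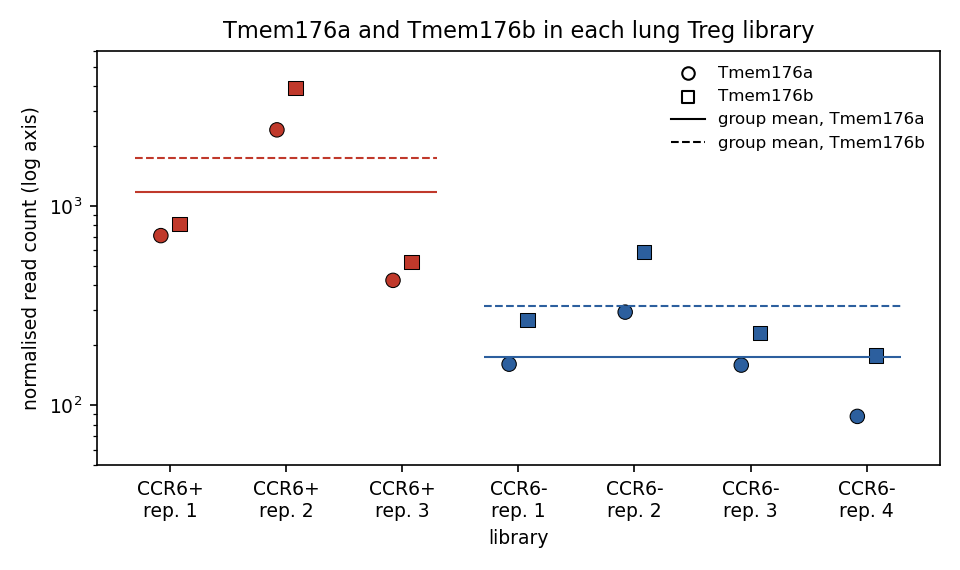
Normalised read counts of Tmem176a (circles) and Tmem176b (squares) in each library on a log axis, CCR6+ in red and CCR6- in blue, with group means as lines. CCR6+ replicate 2 holds the highest value of both genes (2407 and 3889.8), and CCR6- replicate 2 (293 and 587) the highest of the CCR6- libraries.

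The log2 difference was positive for 56.9% of the genes kept. In order of log2 difference among the 14582 genes, Tmem176a was at place 1652 from the top and Tmem176b at place 2366. Kit (2.48) and F11r (2.47) stood on either side of Tmem176a. Gm10800 and Tmc4, both at 2.05, stood on either side of Tmem176b. The members were thus at 11.3% and 16.2% of the way from the top.

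Per exonic length the pair was below Foxp3, the gene that defines the sorted cells, in every library. Tmem176a stood at 6.16, 23.9 and 3.98 RPKM, the reads per kilobase of exon scaled to an equal library size, in the CCR6+ libraries and at 0.722 to 2.62 RPKM in the CCR6- libraries. Tmem176b stood at 11.3, 62.1 and 7.89 RPKM and at 2.35 to 8.43 RPKM. Foxp3 stood at 253 ± 137 and 232 ± 70.9 RPKM. Tmem176b was above Tmem176a per length in all 7 libraries, by 1.83 to 3.25 times. In reads alone it was 1.14 to 2.02 times Tmem176a. The rest comes from the lengths of 2371 and 3810 bases, which join all annotated exons of each gene and may differ from the transcripts present.

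The share of each member in the reads of the pair is the same under any scaling of the libraries. Tmem176b took 53.3%, 61.8% and 55.3% of the pair's reads in CCR6+ replicates 1 to 3, and 62.6%, 66.7%, 59.2% and 66.9% in CCR6- replicates 1 to 4. The exact 95% Clopper-Pearson intervals were narrowest in CCR6+ replicate 2 (59.9% to 63.6%, from 2768 reads of the pair) and widest in CCR6- replicate 3 (54.4% to 63.9%, from 424 reads). They cover counting error only. Mean shares were 56.8% ± 4.45 (n = 3) and 63.8% ± 3.68 (n = 4), and the groups overlapped, since CCR6+ replicate 2 lay above CCR6- replicate 3. The intervals of CCR6+ replicates 1 and 3 ended at 55.6% and 58.5%, below the interval of CCR6- replicate 2 (63.7% to 69.5%) and that of CCR6- replicate 4 (62.0% to 71.6%). Other intervals did overlap. That of CCR6- replicate 3 overlapped both, and that of CCR6- replicate 1 (57.9% to 67.0%) overlapped that of CCR6+ replicate 3. The interval of CCR6+ replicate 2 overlapped those of CCR6- replicates 1, 3 and 4.

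Genes of type 17 lymphocytes were taken from 3 lists of transcription factors, receptors and secreted products. Il23r, a subunit of the IL-23 receptor, stood at 281, 237 and 196 normalised counts in CCR6+ replicates 1 to 3 and at 0 to 9.2 in the CCR6- libraries. The CCR6+ libraries lay far above the others and close to each other, and CCR6+ replicate 2, the highest for the pair, did not stand out (log2 difference 6.19, SE 0.75, limma adjusted p = 0.205).

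Of the 14 transcription factor genes, all kept by the filter, 0 passed the test, 11 had a positive log2 difference and 4 were higher with no overlap. Among those 4 were Ahr, the aryl hydrocarbon receptor (log2 difference 1.47), Sox13, a factor of gamma-delta T cells (2.95), and Tox2, an HMG-box factor (1.58). Without CCR6+ replicate 2 they were at 1.33, 1.57 and 1.35. Sox13 stood at 45.5, 1085 and 79.2 normalised counts in CCR6+ replicates 1 to 3. Of the 12 receptor genes, 11 were kept and 0 passed, with 10 positive and 6 free of overlap, among them Ccr6, which was sorted on. The other 5 were Il23r, Il1r1, Il17re, Il18r1 and Kit, receptors or subunits for IL-23, IL-1, IL-17C, IL-18 and stem cell factor. Kit stood at 630, 6349 and 1341 in CCR6+ replicates 1 to 3, and its log2 difference of 2.48 was 1.55 without CCR6+ replicate 2. Of the 10 genes for secreted products, 8 were kept, 0 passed and 6 were positive, with no overlap for Il17a, Il17f and Ccl20. These were low genes. Il17a stood at 23.2, 88.7 and 19.3 normalised counts against 3.7 to 11.6, and Il17f at 75.6, 223 and 23.3 against 4.1 to 9.9. Ccl20 stood at 24.9, 11.4 and 38.6 and reached 9.1 in CCR6- replicate 2. In CCR6+ replicate 2, with 11.4, 1 read is worth 2.27, so its separation rests on few reads. The medians of the lists were 0.56, 1.19 and 1.64, against 0.10 over all genes kept, and 0.85, 1.27 and 1.29 without CCR6+ replicate 2. Among all genes kept, 56.9% were positive and 7.96% were higher with no overlap.

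Markers of myeloid cells were also higher on average in the CCR6+ libraries, although the cells had been sorted on Foxp3EGFP. Of the 18 macrophage and monocyte markers, 17 were kept, 17 were positive, 0 passed and 2 were free of overlap, and their median was 2.34 (1.43 without CCR6+ replicate 2). The shares over all genes kept were 56.9% positive and 7.96% higher with no overlap. The summed level of the 18 markers was 109520, 147797 and 41780 normalised counts in CCR6+ replicates 1 to 3 and 19518 to 59125 in the CCR6- libraries. Much of these sums was Ccr2 alone, at 54010, 18948 and 30868 in CCR6+ replicates 1 to 3. In CCR6- replicate 4 it held 17962 of the 19518. The sums are therefore no measure of the amount of myeloid RNA. Adgre1, which encodes the macrophage antigen F4/80, and Mrc1 were listed at 0 in CCR6- replicate 4, and Marco in CCR6+ replicate 1 and CCR6- replicate 2. Csf1r, the receptor for colony stimulating factor 1, stood at 1203, 4900 and 455 against 662, 413, 162 and 123, and Lyz2, lysozyme, at 12844, 63003 and 7346 against 12182, 9618, 1730 and 539. For both genes a CCR6- library lay above CCR6+ replicate 3.

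Of the 14 dendritic cell markers, 13 were kept, 12 were positive, 0 passed and 4 were free of overlap, and their median was 1.25 (0.83 without CCR6+ replicate 2). Beside these stand 56.9% positive and 7.96% higher with no overlap over all genes kept. The summed level of the 14 markers ran from 13401 to 31330 in the CCR6+ and from 7945 to 12365 in the CCR6- libraries. These sums also rest on few genes. In CCR6- replicate 4, with 12365, Cd83, Irf8 and Cst3 stood at 5479, 3230 and 2865. Zbtb46, a transcription factor of conventional dendritic cells, stood at 522, 996 and 344 against 161 to 307 normalised counts. Flt3, the receptor of their growth factor, stood at 101, 1094 and 107 against 31.8 to 56.3. Neither passed (limma, adjusted p = 0.449 and 0.459). Both are among the 4 free of overlap. Itgax, also on the list, overlapped, at 552, 1176 and 17.3 against 16.2 to 278. Its log2 difference was 1.25, and 0.07 without CCR6+ replicate 2. Siglech was the 1 marker kept with a negative log2 difference, at -0.14, and at -3.01 without CCR6+ replicate 2. Clec9a was listed at 0 in CCR6+ replicate 1, as was Siglech.

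Genes of MHC class II presentation did not all go the same way. H2-Eb1 and H2-Aa are given in full, as the beta and alpha chains of class II molecules, and H2-Eb1 is also one of the 10 genes picked for their likeness to the pair. H2-Eb1 stood at 2272, 11035 and 1064 normalised counts in CCR6+ replicates 1 to 3 and at 762, 1491, 449 and 335 in CCR6- replicates 1 to 4. H2-Aa stood at 3700.3, 16130.0 and 1586 against 1316, 2248, 585 and 508. The order of the 7 libraries was the same for Tmem176b, H2-Eb1 and H2-Aa, with CCR6- replicate 2 above CCR6+ replicate 3 and with CCR6- replicate 4 lowest. Tmem176a did not share it, since CCR6+ replicate 3 lay above CCR6- replicate 2, with the other places the same. Ccr6 had another order, with CCR6+ replicate 1 highest and CCR6+ replicate 2 below CCR6+ replicate 3. Of the 15 genes of the class II list, 13 were kept, 12 were positive, 0 passed, 1 was higher and 1 lower with no overlap, and their median was 1.81 (0.98 without CCR6+ replicate 2). These 2, named after their values were seen, were Ciita, the class II transactivator, at 553 ± 456 against 75.7 ± 56.5 normalised counts, and H2-Ob, a chain of the class II modulator H2-O, at 1418 ± 403 against 3288 ± 639. H2-Ob had the smallest adjusted p of the list (limma, 0.374, log2 difference -1.23). Its partner chain H2-Oa (0.09) and H2-DMa (0.23), named in the same way, had log2 differences near 0. Among all genes kept, 56.9% were positive, 7.96% were higher with no overlap and 5.53% lower. The part of these myeloid and class II transcripts in the values of the pair was not tested.

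Set against 1000 reads of H2-Eb1, the pair had 563 to 889 reads in the 7 libraries, a range of 1.58 times. H2-Eb1 is one of the genes most like the pair, so a narrow range was to be had by choice. Against 1000 reads of H2-Aa the pair had 326 to 667 reads, a range of 2.04 times. Against Flt3 and Cd74, the class II invariant chain, the ranges were 2.71 times each, and against Csf1r 3.71 times. With Lyz2 as the reference the range was 14.0 times, and it came from the CCR6- libraries alone, since the CCR6+ libraries had 99.9, 118 and 129 reads of the pair per 1000 reads of Lyz2.

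Against Ccr6 the range was 15.5 times, with 208, 2289.5 and 148 reads of the pair per 1000 reads of Ccr6 in CCR6+ replicates 1 to 3 and 472 to 1034 in the CCR6- libraries. Against Foxp3 it was 47.9 times, with 29.9, 516 and 25.4 reads and 10.8 to 28.5. CCR6+ replicate 2 was highest of all against Ccr6 and Foxp3. In the other libraries the pair had 148 to 1034 reads per 1000 reads of Ccr6 and 10.8 to 29.9 per 1000 reads of Foxp3.

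**Figure D2:**
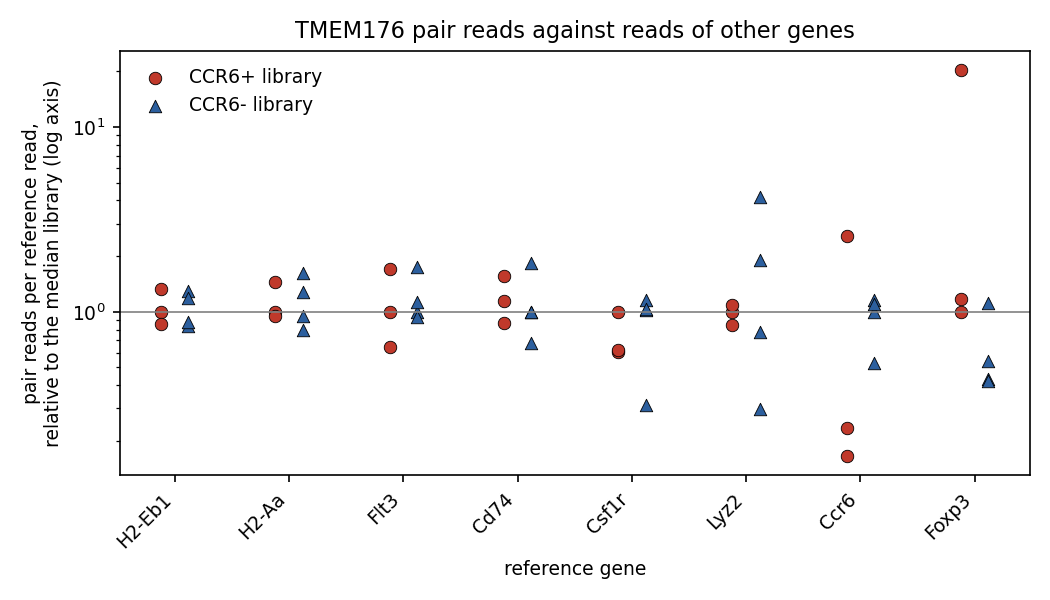
Reads of Tmem176a and Tmem176b together per read of 8 reference genes, each divided by its median over the 7 libraries, on a log axis, with CCR6+ libraries as red circles and CCR6- libraries as blue triangles. The points lie closest together for H2-Eb1 (a range of 1.58 times), which was picked for its likeness to the pair. They spread widely for Lyz2 (14.0 times), Ccr6 (15.5 times) and Foxp3 (47.9 times). The range for Foxp3 comes from CCR6+ replicate 2 (516 reads per 1000, the other libraries 10.8 to 29.9).

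The genes most like the pair were sought among 12386 genes with a mean of at least 50 normalised counts, by Pearson's r over the 7 libraries between log2 values and the mean of the 2 members. Among the 10 of highest r were Ubtd1, Zfp456, Haao, Me1, Plbd1, Aldh1a7, H2-Eb1, Rasgrp3 and Nfix, all at 0.99 when rounded. Plbd1, a phospholipase B-like gene, stood at 1037, 5166 and 508 against 267, 404, 154 and 160.

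Likeness was sought again without CCR6+ replicate 2, which holds the extreme values. Among the 5 of highest r over the other 6 libraries were 5330417C22Rik, Cd38, Rbpms and Sh3pxd2b. Cd38, an ectoenzyme of activated lymphocytes and myeloid cells, stood at 3754, 2987 and 2689 against 1630, 2399.7, 1624 and 1335. Of the 10 most like genes, 3 were in the first 10 of both searches. Il23r had r = 0.70 over 7 libraries, at place 2313 of the 12386 genes, and 0.64 over 6, at place 2019. Flt3 was at place 106 and 120 and Csf1r at place 308 and 773. Ccr6 moved from place 2379 to place 237. Over 7 libraries the 2 members had r = 0.98 with each other. The points share the depth of each library and the separation of the 2 groups, so these are descriptions.

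Other cell types were read in the same way, beside 56.9% positive and 7.96% higher with no overlap over all genes kept. The 10 measured B cell markers were all kept and positive, with 0 passed, 2 free of overlap, a median of 2.21 and, without CCR6+ replicate 2, 1.84. Of the 14 granulocyte and mast cell markers 12 were kept and 11 positive, with 0 passed and a median of 2.75, or 1.81 without that library. The lung epithelium list (14 of 14 positive, median 2.15) and the endothelium and stroma list (14 of 14, median 2.47) went to 0.72 and 1.05 without it, with 0 passed in both. Of the 9 measured markers of innate lymphoid and gamma-delta T cells 7 were positive, with a median of 0.78 (0.49 without that library). The pan T cell list had a median of -0.37 with 9 of 12 negative, and of -0.08 without CCR6+ replicate 2. For the Treg identity list the sign rested on that library, since the median was -0.20 with 10 of 17 negative over all libraries and 0.28 with 13 of 17 positive without it. The part of these transcripts in the values of the pair was not tested either.

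**Figure D3:**
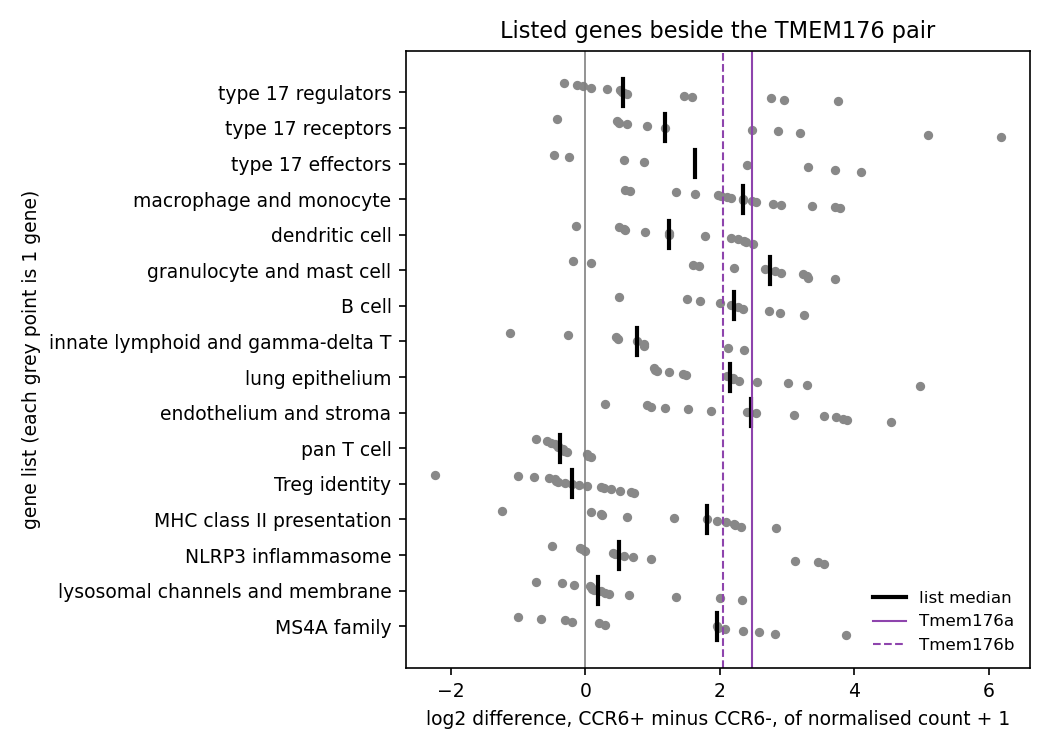
Log2 differences of the genes of each list that passed the filter (grey points), with list medians as black bars and the 2 members as vertical lines at 2.48 and 2.05. Medians run from -0.37 (pan T cell) to 2.75 (granulocyte and mast cell), with 0.56, 1.19 and 1.64 for the 3 type 17 lists, 2.34 for macrophages and monocytes, 1.25 for dendritic cells and 1.81 for MHC class II. Their order changes without CCR6+ replicate 2, where the members are at 1.77 and 1.19, type 17 receptors at 1.27 and MHC class II at 0.98.

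The 12 genes around the NLRP3 inflammasome, which TMEM176B is known to restrain, were all kept, with 8 positive, 0 passed, 3 higher with no overlap and a median of 0.50. Nlrp3, the sensor, stood at 48.97, 359 and 50.8 against 2.8 to 17.4 normalised counts. Pycard, the adaptor ASC, stood at 1570 ± 274 against 2241 ± 524, and Casp1, the protease, at 864 ± 140 against 665 ± 197. Among 14 ion channels and membrane proteins of endosomes and lysosomes, 11 were positive, 0 passed and 3 were free of overlap, with a median of 0.19. Mcoln1, the lysosomal channel TRPML1, stood at 2277 ± 294 against 2214 ± 639, and Tpcn1, a further lysosomal channel, at 267 ± 45.7 against 477 ± 209. Lamp1, a main protein of the lysosomal membrane, stood at 10691 ± 2809 against 9875 ± 616. For comparison, 56.9% of all genes kept were positive and 7.96% were higher with no overlap.

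The MS4A relatives split into genes abundant in these cells and genes of low level. Of 17 measured genes 13 were kept, 9 of them positive and 4 negative, with 0 passed, 1 higher and 2 lower without overlap, and their median was 1.96 (0.84 without CCR6+ replicate 2). Ms4a4b and Ms4a6b, T cell members of the family, stood at 15100 ± 3001 and 21613 ± 6637 normalised counts in the CCR6+ group and at 30006 ± 3245 and 33315 ± 5148 in the CCR6- group, lower with no overlap. Over all genes kept, 5.53% stood lower in that way, 7.96% stood higher with no overlap and 56.9% were positive. Ms4a1, which encodes CD20, had 1497 ± 936 against 549 ± 637. The near-identical copies in this family may not have been separable in counting.

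Within 250 kb on either side of the pair, 40 other genes are annotated, of which 19 were measured and 16 kept. Of those 16, 5 were positive, 11 were negative, 0 passed, 0 were higher and 4 were lower with no overlap, and the median log2 difference was -0.35. Among all genes kept, 56.9% were positive, 7.96% were higher with no overlap and 5.53% lower. On the Tmem176b side lie 8 measured genes of the Gimap family, GTPases that support lymphocyte survival. All 8 had negative log2 differences, from -0.72 to -0.34, although with a myeloid or a lung marker mean as a covariate only 6 and 7 of them did. Without CCR6+ replicate 2, in which each had its lowest value, they ran from -0.40 to -0.11. Gimap3, the nearest of them at -63.0 kb (negative on the Tmem176b side), stood at 27647 ± 10609 against 42067 ± 3522 normalised counts (limma, adjusted p = 0.478). On the other side Aoc1, a diamine oxidase gene 25.8 kb from Tmem176a, was listed at 0 in CCR6+ replicate 1 and in CCR6- replicates 1 and 4 and stood at 205 and 38.6 in CCR6+ replicates 2 and 3. Gpnmb, a glycoprotein gene of macrophages and melanocytes 189 kb away, stood at 637, 657 and 185 against 41.4 to 249 (log2 difference 2.32, adjusted p = 0.45).

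**Figure D4:**
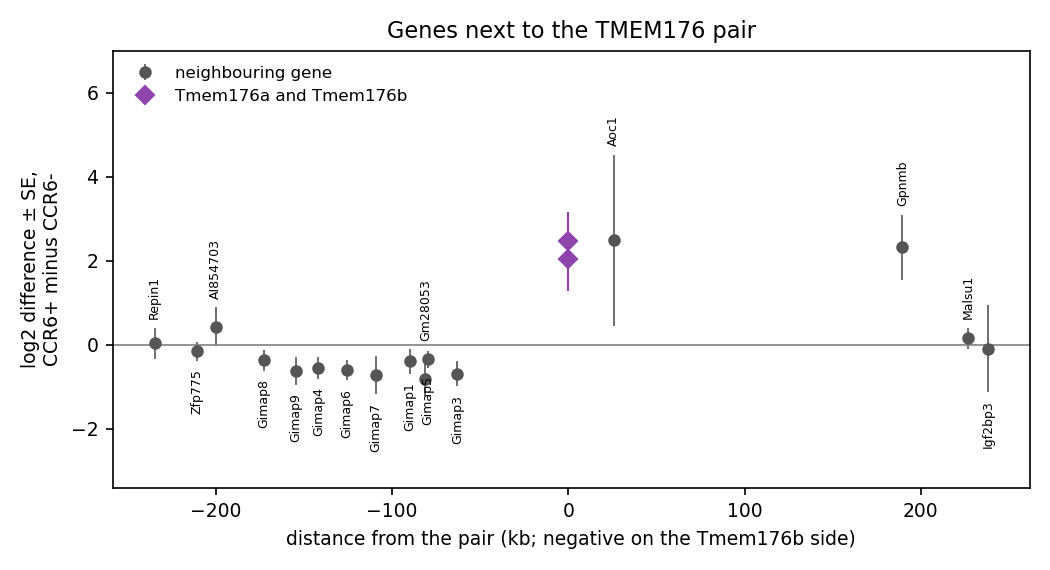
Log2 differences with their SE of the 2 members (purple) and of the 16 neighbouring genes kept, by distance from the pair in kb. The 8 Gimap genes lie from -0.72 to -0.34 (6 and 7 of them stay below 0 with the myeloid and the lung covariate), while Aoc1 and Gpnmb lie at 2.49 and 2.32.

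The size of the difference of the pair moved with the processing, and its sign did not in the 20 alternatives. This contrast chose the pair, so nothing is read from the sign. The 20 are also not independent. Changing the filter or using limma-trend leaves these values as they were by construction. The replicate block gives the same values as leaving out CCR6- replicate 4. Tmem176a ranged from 1.02 to 3.02 and Tmem176b from 0.46 to 2.64. The lowest values came with the mean of the macrophage, monocyte and dendritic cell markers as a covariate, 1.02 (SE 0.41) for Tmem176a and 0.46 (SE 0.55) for Tmem176b. With the mean of the lung epithelial, endothelial and stromal markers in that place they were 1.29 (SE 0.38) and 0.71 (SE 0.46).

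**Figure D5:**
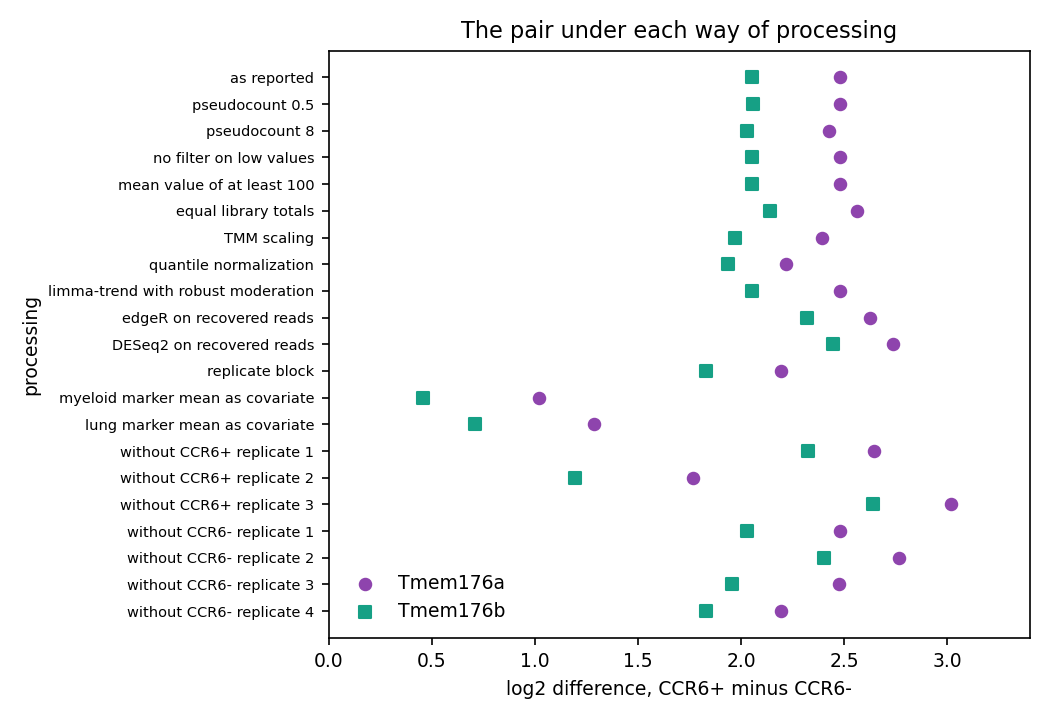
Log2 difference of Tmem176a (circles) and Tmem176b (squares) as reported and under each of the 20 alternatives. The points furthest to the left are those with the myeloid marker mean (1.02 and 0.46) and the lung marker mean (1.29 and 0.71) as a covariate.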

How the data were processed

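RNA from sorted lung Treg cells was amplified with SMART-Seq v4 and made into libraries with KAPA Hyper Prep, per the labels' protocols. The authors deposited for each library a signal, the read count per gene divided by a size factor, called normalised count here. STAR 2.5.1b, HTSeq 0.6.1p1, DESeq2 1.6.3 and mm10 are listed, without roles, per the submitters' processing notes. Whole reads were recovered from the steps of the values (100% within 0.001 reads). Log2(value + 1) was fitted with limma 3.58.1 in R 4.3.3 for CCR6+ minus CCR6- over genes of at least 10 in at least 3 of 7 libraries, with Benjamini-Hochberg adjustment at 0.05. This pseudocount understates changes of low genes. The fit was tried on simulated data with the same dispersion for all genes and no library of outlying composition. That trial therefore says nothing on how the fit handles a library such as CCR6+ replicate 2. EdgeR 4.0.16 and DESeq2 1.42.0 on recovered reads, other pseudocounts, filters, scalings, covariates, a replicate block and leaving out libraries were alternatives.

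The members and lists were chosen with earlier results of these data known. Genes named were the pair, label checks, every type 17 gene, in other lists the first 3 and the 3 of highest mean, measured neighbours within 250 kb, the genes most like the pair and those beside it in rank. Markers listed at 0 were named as well. Of the entries, 27 read as dates rather than symbols, and 2 symbols had more than 1 entry. Reads per kilobase used exonic lengths of GENCODE M21. No 2 libraries agreed within sampling noise. Some genes that the rule names are not reported here.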

Additional observations from a re-analysis of the deposited data

Results flagged for a closer look

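In the 4 CCR6- libraries, 153 sets of values were examined for a single library far from the other 3 by Dixon's gap criterion, and 10 met it (6.54%, where chance gives about 5%). Neither member of the pair nor the share of Tmem176b was among them. In CCR6- replicate 2, Casp1 stood at 956.2 normalised counts (the others at 542.8 to 610.0), Nfil3 at 6558 (5128 to 5314), Scgb1a1, a secretory protein of airway epithelium, at 1188 (24.83 to 213.7) and Ccl20 at 9.115 (the others at 0). CCR6- replicate 4 had Ctla4 at 21780 (39980 to 41860) and Lck at 97710 (44520 to 48330). CCR6- replicate 3 had Doxl2 at 3.678, Il22 at 0.9196 and Svs1 at 2.759, and CCR6- replicate 1 had Ms4a3 at 2.837, with the other 3 libraries at 0 for each. With the other 3 at 0 any value above 0 meets the criterion, so the 5% does not apply to such sets. Ccl20 was flagged in the same way, and the Il22 value is 1 read. The 3 CCR6+ libraries are too few for this criterion.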

How the results depend on the processing

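Both members kept a positive log2 difference in all 20 alternatives, some of which cannot change it, and nothing is read from that sign. With the myeloid marker mean as a covariate Tmem176a was at 1.02 and Tmem176b at 0.46, and with the lung marker mean at 1.29 and 0.71. Leaving out 1 library gave 1.77 to 3.02 for Tmem176a and 1.19 to 2.64 for Tmem176b, the lowest without CCR6+ replicate 2. Deviations of same-numbered libraries from their group means correlated at -0.13, -0.11 and 0.34 over the genes kept. So few libraries cannot decide whether replicate numbers pair them. With the replicate block, Tmem176a was at 2.19 (SE 0.41, against 0.68 without it) and Tmem176b at 1.83 (SE 0.40, against 0.77). The block drops CCR6- replicate 4, which has no same-numbered partner, and 0 genes were called with it.

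Genes called higher numbered 0 as reported, 1 with a pseudocount of 0.5 or TMM scaling, 2 with a pseudocount of 8, a mean of at least 100, quantile normalization or edgeR, 8 with limma-trend and 543 with DESeq2. Leaving out 1 library gave 0 to 1. Genes called lower numbered 2 with quantile normalization or limma-trend and 136 with DESeq2.

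List medians moved mainly with the covariates; lists that make up a covariate have no value under it. The myeloid covariate put type 17 regulators at 0.77, granulocyte and mast cell markers at 0.18, B cell at 0.024, innate lymphoid and gamma-delta T at 0.026, lung epithelium at -0.40, endothelium and stroma at -0.0095, pan T cell at 0.14, Treg identity at 0.39, MHC class II at 0.26, MS4A at 0.057 and the neighbours at -0.047. The lung covariate put regulators at 0.83, macrophage and monocyte at 0.62, granulocyte and mast cell at 0.74, pan T cell at 0.087, Treg identity at 0.38, MHC class II at 0.69, MS4A at -0.056 and the neighbours at -0.12. Quantile normalization put type 17 effectors at 0.48, granulocyte and mast cell at 0.68, innate lymphoid and gamma-delta T at -0.12 and MS4A at -0.019. A mean of at least 100 put effectors at 0.58 and MS4A at 0.21. Leaving out 1 library gave 0.45 to 0.85 for regulators, 0.98 to 2.46 for MHC class II and 0.84 to 2.09 for MS4A. The neighbour alternatives were chosen after seeing the data. The causes were not tested. The median over all genes, 0.10 as reported, was 0.42 without a filter and -0.08 with quantile normalization. In the shallowest library 1 read is worth 2.27 normalised counts, so low values there are coarse.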
